A study of Homo sapiens with 21 samples.

Results

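The 10 genes described here regulate, form or respond to the YAP and TEAD transcription complex, and they were taken by symbol from both deposited expression tables, each of which lists 20111 genes. The regulators were LATS2, AJUBA, AMOTL1 and AMOTL2, the effectors were YAP1, WWTR1 and TEAD1, and the targets were CTGF, CYR61 and ANKRD1. CTGF and CYR61 are the older names, used in the files, of CCN2 and CCN1. All 10 symbols were found in both tables.

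In the Hippo pathway a kinase cascade that ends in LATS1 and LATS2 phosphorylates YAP and its paralog TAZ, the product of WWTR1, and so keeps them out of the nucleus. Angiomotin family proteins hold YAP at cell junctions, and AJUBA is a LIM domain scaffold that binds and restrains LATS kinases. YAP and TAZ that reach the nucleus bind TEAD factors and switch on genes such as CTGF, CYR61 and ANKRD1, and in EGFR-mutant lung cancer cells this output has been studied for its part in drug tolerance.

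The data were poly(A)-selected RNA-seq libraries of PC9 (PC-9) cells, a human lung adenocarcinoma line that carries an activating EGFR deletion. The labels write the deletion as delE746-A750 for the first sample, and its last residue then runs on by 1 per sample to delE746-A770, so that no 2 of the 21 libraries share a genotype label. EGFR-low and EGFR-high cells were obtained by 6 rounds of sorting on EGFR and were maintained by further sorting, so each group stands for 1 sorted population of 1 line and not for separate clones or patients. The question addressed was how cells with little EGFR differ from cells with much EGFR and whether an HDAC inhibitor changes them.

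There were 7 groups of 3 libraries. Parental, EGFR-high and EGFR-low cells were left untreated and harvested 24 hours after seeding. EGFR-high and EGFR-low cells of the second experiment received DMSO, the solvent control, or 1 µM vorinostat (SAHA), an inhibitor of histone deacetylases, from 24 hours after seeding and for 72 hours. The 9 untreated and the 12 treated libraries stood in separate tables that were made separately, so levels are set side by side across them below but were tested only within each. The labels only number the replicates, while the study describes its RNA-seq replicates as biological, meaning experiments run independently and at separate times.

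EGFR followed the sort labels in both experiments, with a mean of 49.1 FPKM (fragments mapped to a gene, scaled for transcript length and library size) in EGFR-low and 224 FPKM in EGFR-high untreated cells, and of 26.8 and 115 FPKM in DMSO. All 6 epithelial markers were above 1 FPKM in all 21 libraries, and 6 of 7 fibroblast markers were below 1 FPKM in every library. CD68, from 4 leukocyte markers, and CDH5, from 2 endothelial markers, were above 1 FPKM in every library. Of 4 lung adenocarcinoma lineage markers, SFTPB and SFTPC stayed below 1 FPKM in every library and NAPSA reached at most 3.41 FPKM. NKX2-1, the lineage factor of lung adenocarcinoma, was at most 0.069 FPKM in the 9 untreated libraries but 24.1 to 51.1 FPKM in the 6 EGFR-low libraries of the second experiment. In the EGFR-high vorinostat libraries it was 0.588, 0.0617 and 0.0674 FPKM. Replicate 1 of that group had the lowest mean correlation with its group mates in the second experiment, at 0.952. In the EGFR-high DMSO libraries NKX2-1 was 0.0859, 0.0397 and 11.1 FPKM, so replicate 3 stood apart. EGFR-low DMSO replicate 1 stood apart as well, with 43.3 FPKM of EGFR against 17.7 and 19.4 in its group mates and 7.28 FPKM of LYZ against 0.0284 and 0.0597. Of the other leukocyte markers, PTPRC (0.805 against 0.0335 and 0.0438 FPKM) and CD3E (0.937 against 0 and 0.0184 FPKM) were also highest there. CD68 was at 21.9 FPKM against 21.7 and 14.5 FPKM. Results of the members in DMSO, and some of those with vorinostat, are therefore also given without EGFR-low DMSO replicate 1 and EGFR-high DMSO replicate 3. This alternative was chosen after seeing the data. The 4 gene lists are given with all libraries only. All 21 libraries are labelled PC9, but whether the EGFR-low libraries of the second experiment and the 2 that stood apart hold the same cells as the untreated ones was not tested, and every value of the second experiment below is that of libraries so labelled. The part of the NKX2-1 difference in the results was not tested either.

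The core site that TEAD factors bind is the 6-base word GGAATG, and the promoters of CTGF and ANKRD1 are shown because these 2 targets, both bearing the word, stood on opposite sides of the EGFR-low and EGFR-high comparison in the second experiment, although CTGF was not called there. Each sequence is the 250 bases before the RefSeq transcript start, 5′ to 3′ on the gene's own strand in GRCh38.p14, with the word on either strand in capitals. CTGF lies at chr6:131951373-131951622 and ANKRD1 at chr10:90921088-90921337, both on the minus strand.
CTGF: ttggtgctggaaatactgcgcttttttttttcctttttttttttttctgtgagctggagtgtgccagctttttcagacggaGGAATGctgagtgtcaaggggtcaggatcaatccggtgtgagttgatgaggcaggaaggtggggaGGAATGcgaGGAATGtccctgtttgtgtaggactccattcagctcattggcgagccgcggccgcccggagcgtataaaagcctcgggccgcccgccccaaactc
ANKRD1: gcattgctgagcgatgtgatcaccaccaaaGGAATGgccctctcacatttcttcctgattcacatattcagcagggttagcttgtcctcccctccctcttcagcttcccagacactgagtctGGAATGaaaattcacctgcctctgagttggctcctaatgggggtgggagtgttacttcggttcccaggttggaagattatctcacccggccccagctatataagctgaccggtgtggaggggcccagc
The CTGF window held 3 matches, which began 169, 104 and 95 bases before the start, and the ANKRD1 window held 2, which began 220 and 128 bases before it. Over all 35116 RefSeq promoter windows of this length, 11.9% held at least 1 match, 0.94% at least 2 and 0.0826% at least 3. Of the other members, YAP1 held 1 match, AMOTL2 and AJUBA held 1 in 1 of their 2 listed promoters, and LATS2, AMOTL1 and WWTR1 held none. CYR61 and TEAD1 were not matched. A match is a description of letters and was not tested for binding.

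Among untreated cells, EGFR-low cells had less mRNA of 2 YAP targets and of 1 angiomotin gene than EGFR-high cells. CYR61 and AMOTL2 were lower by 2.43-fold and 2.76-fold in mean FPKM and ANKRD1 by 11.1-fold, while YAP1, WWTR1, LATS2 and AJUBA did not pass the test and CTGF was hardly expressed. Of the 9 members that could be tested, 3 were called at an adjusted p under 0.05 with limma, all lower in EGFR-low cells. In the same comparison 3.81% of 11305 genes were called, 2.19% lower and 1.62% higher. The groups did not overlap for 4 members and for 20.6% of all genes.

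None of the 3 effectors was called between the sorted populations. YAP1, the central coactivator of the pathway, measured 59.2, 39.9 and 67.0 FPKM in EGFR-low, 65.8, 58.1 and 74.9 FPKM in EGFR-high and 74.5, 46.8 and 67.5 FPKM in parental cells. The 3 ranges overlapped, and the EGFR-low minus EGFR-high difference on the log2(FPKM + 1) scale was -0.28 with a 95% interval of -0.89 to 0.33. WWTR1, which encodes TAZ, measured 29.8, 13.7 and 25.6 FPKM in EGFR-low and 25.3, 19.8 and 35.5 FPKM in EGFR-high cells, with a difference of -0.25. These groups also overlapped, and YAP1 made up 66.5 to 74.6% of the summed YAP1 and WWTR1 FPKM in the 6 libraries.

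TEAD1, a DNA-binding partner of YAP, measured 23.1, 11.2 and 17.5 FPKM in EGFR-low, 38.5, 20.9 and 38.1 FPKM in EGFR-high and 36.7, 16.4 and 36.7 FPKM in parental cells. EGFR-low and EGFR-high overlapped in 1 place, since EGFR-high replicate 2 lay below EGFR-low replicate 1, and replicate 2 was the lowest of its group in all 3 groups. The log2 difference of EGFR-low from EGFR-high was -0.88 and was not called (limma, adjusted p = 0.342).

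AMOTL1 and AMOTL2, angiomotin family scaffolds of which AMOTL2 is itself often induced by YAP, were both at their lowest in EGFR-low cells. AMOTL2 measured 3.48, 2.28 and 4.99 FPKM in EGFR-low, 8.46, 9.45 and 11.8 FPKM in EGFR-high and 6.46, 6.89 and 5.11 FPKM in parental cells. The 3 groups did not overlap, and the log2 difference from EGFR-high was -1.28 ± 0.263 (SE, limma, adjusted p = 0.0199). AMOTL1 measured 24.6, 10.2 and 26.1 FPKM in EGFR-low, 48.4, 29.3 and 54.9 FPKM in EGFR-high and 43.0, 22.4 and 46.4 FPKM in parental cells. EGFR-low and EGFR-high did not overlap here, yet replicate 2 was again the lowest in each group and the difference of -1.14 was not called (limma, adjusted p = 0.203). Per length, AMOTL1 exceeded AMOTL2 in every untreated library, at 75.6 to 90.1% of their summed FPKM.

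LATS2, a core kinase of the pathway, was low at 1.22 to 2.22 FPKM in the 9 untreated libraries, and the EGFR-low minus EGFR-high difference was -0.30 (limma, adjusted p = 0.604). AJUBA measured 5.38, 4.66 and 6.34 FPKM in EGFR-low and 4.78, 3.85 and 4.71 FPKM in EGFR-high cells. Its groups overlapped narrowly, and the difference was 0.24 (limma, adjusted p = 0.812).

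The targets differed from each other in level. CYR61, a secreted matricellular protein, measured 11.7, 11.6 and 13.9 FPKM in EGFR-low, 25.4, 38.2 and 27.1 FPKM in EGFR-high and 23.6, 26.9 and 17.7 FPKM in parental cells. All 3 EGFR-low libraries lay below the other 6, and the log2 difference from EGFR-high was -1.20 ± 0.251 (SE, limma, adjusted p = 0.0216). ANKRD1, a nuclear ankyrin repeat protein, measured 0.42, 1.46 and 0.314 FPKM in EGFR-low, 6.12, 14.5 and 3.68 FPKM in EGFR-high and 3.26, 10.7 and 2.59 FPKM in parental cells. Here too EGFR-low lay below the other groups, replicate 2 was the highest in each, and the difference was -2.27 ± 0.507 (SE, limma, adjusted p = 0.0305). CTGF, the matricellular relative of CYR61, was at most 0.21 FPKM in any untreated library and was not tested.

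**Figure D1:**
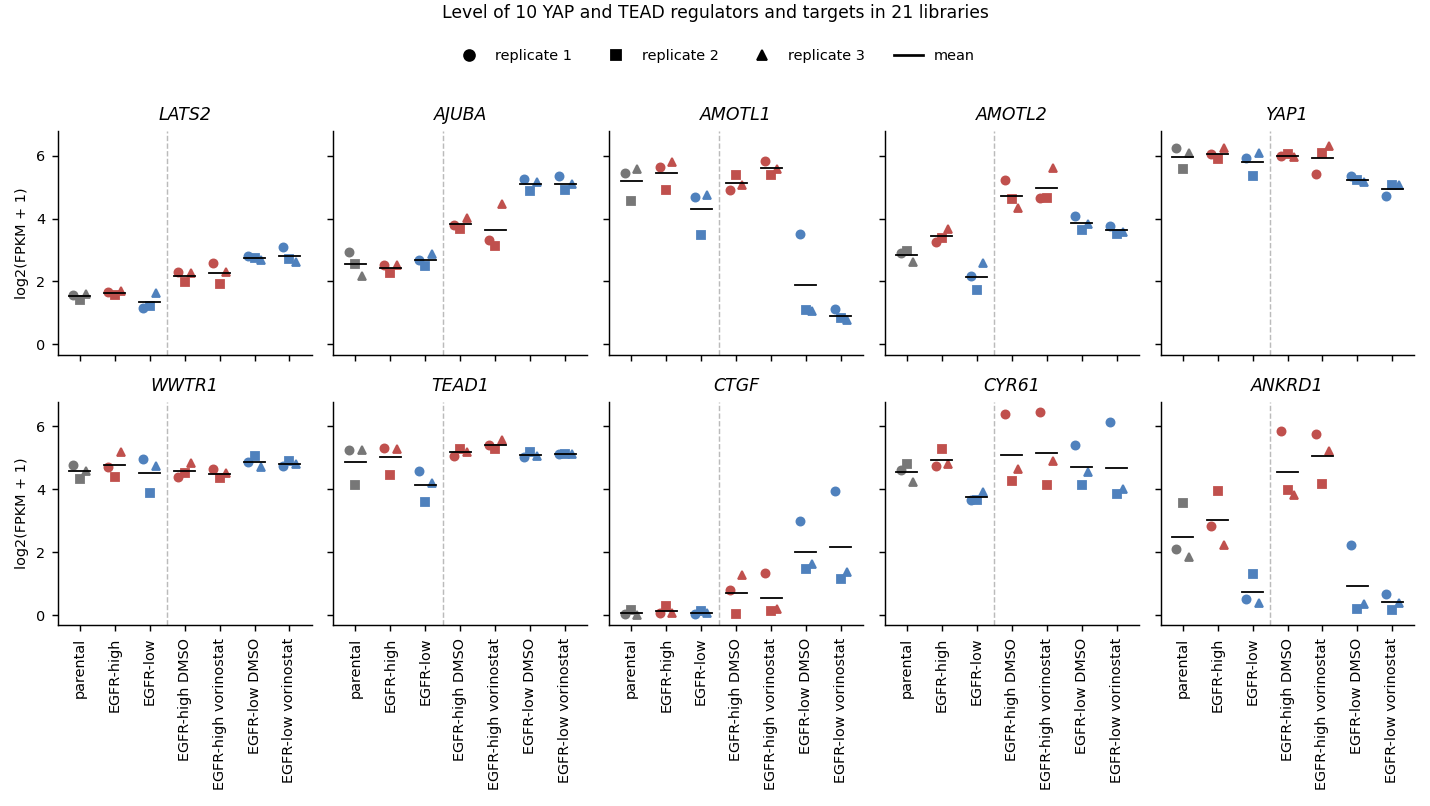
Each panel plots 1 gene on a log2(FPKM + 1) axis, with 1 point per library (circle, square and triangle for replicates 1, 2 and 3), a line at the group mean, and the untreated groups left of the dashed line. Among the untreated groups ANKRD1, CYR61 and AMOTL2 sit lowest in EGFR-low cells, AMOTL1 is at 0.715 to 1.16 FPKM in EGFR-low vorinostat libraries, and CTGF exceeds 0.21 FPKM only right of the dashed line.

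Each of these 3 calls was lost when certain single libraries were left out. Leaving out 1 library at a time left 0 or 1 member called: none without EGFR-low replicate 1, EGFR-high replicate 1 or EGFR-high replicate 2, and 1 without EGFR-low replicate 2, EGFR-low replicate 3 or EGFR-high replicate 3. The log2 differences themselves stayed between -1.31 and -1.03 for CYR61, between -1.50 and -1.06 for AMOTL2 and between -2.66 and -1.80 for ANKRD1. In the other direction, same-numbered EGFR-low and EGFR-high libraries deviated together. Once that number entered the fit as a block 5 members were called, the added ones being AMOTL1 (limma, adjusted p = 0.00459) and TEAD1 (limma, adjusted p = 0.0144). With the block 965 of 11305 genes were called, against 431 without it. The block also spanned the parental libraries, whose lowest correlation of same-numbered deviations was -0.092 with EGFR-low and -0.00229 with EGFR-high.

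**Figure D2:**
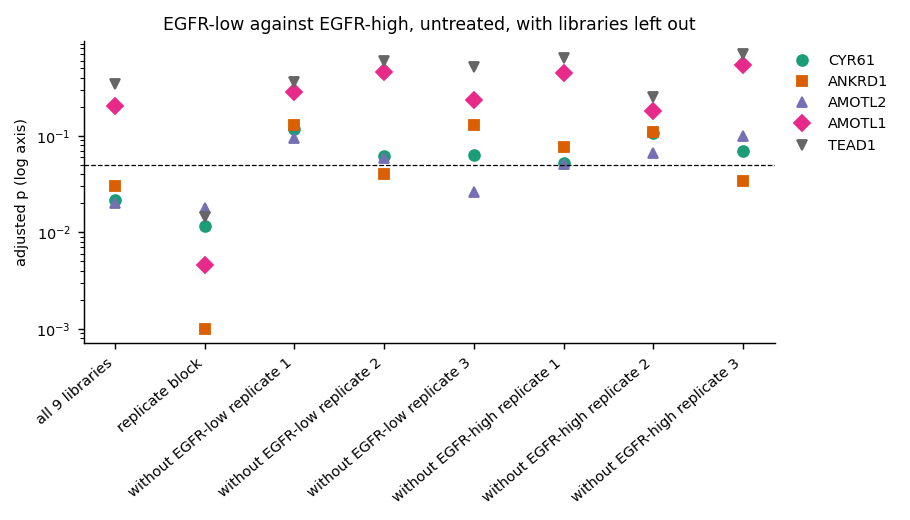
Adjusted p on a log axis for 5 members in untreated EGFR-low against EGFR-high cells, in the fit of all 9 libraries, with the replicate block and with each of the 6 libraries left out; the dashed line marks 0.05. CYR61 is above the line in every left-out fit, at 0.0516 to 0.117, and all 5 genes are below it with the block.

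Against parental cells, which share the EGFR-low libraries with the comparison above, EGFR-low cells had none of the 9 tested members called (limma), where 1.6% of all genes were called. CYR61, ANKRD1 and AMOTL2 had unadjusted p-values under 0.05 and groups that did not overlap, where 1668 of 11305 genes had such p-values and 17.1% of all genes did not overlap. Their log2 differences were -0.81 (limma, adjusted p = 0.172), -1.76 (limma, adjusted p = 0.138) and -0.68 (limma, adjusted p = 0.268). EGFR-high cells against parental cells also had none called (limma), where 0.0708% of all genes were called. AMOTL2 was the member with an unadjusted p under 0.05, at a log2 difference of 0.60 and with no overlap (limma, adjusted p = 0.507). Here 1093 of 11305 genes had such p-values and 16.2% of all genes did not overlap. CYR61 and ANKRD1 differed by 0.39 and 0.51, within overlapping groups.

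In the second experiment EGFR-low and EGFR-high cells stood far apart over the whole transcriptome, and the members with them. In DMSO 6 of 10 members were called with limma, where 51.8% of 12236 genes were, 31.1% higher and 20.7% lower in EGFR-low cells. ANKRD1, AMOTL1, AMOTL2 and YAP1 were lower and LATS2 and AJUBA were higher. Without the 2 libraries that stood apart 5 members were called, LATS2 being lost. In that fit YAP1 differed by -0.846, AMOTL2 by -1.204 and AJUBA by 1.285. Of the members not called, CTGF differed by 1.124, CYR61 by -0.98, WWTR1 by 0.415 and TEAD1 by -0.052. The groups did not overlap for 7 of 10 members and for 69.3% of all genes. The median log2 difference over all genes was 0.12 in DMSO and 0.16 with vorinostat, and after median-of-ratios scaling the split of all calls moved from 3807 higher and 2527 lower to 3177 and 3201 in DMSO and from 4427 and 2795 to 3617 and 3591 with vorinostat. The 10 members kept their directions under that scaling in both comparisons.

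YAP1 measured 39.5, 36.4 and 34.6 FPKM in EGFR-low DMSO and 63.0, 66.1 and 60.6 FPKM in EGFR-high DMSO libraries. The groups were tight and did not overlap, with a log2 difference of -0.77 ± 0.196 (SE, limma, adjusted p = 0.00673). WWTR1 measured 28.2, 32.1 and 24.8 FPKM in EGFR-low DMSO and 20.03, 21.8 and 27.7 FPKM in EGFR-high DMSO. These groups overlapped, and the difference of 0.29 was not called (limma, adjusted p = 0.111), although it was without EGFR-high DMSO replicate 3 (0.42, limma, adjusted p = 0.0292). The share of YAP1 in the summed YAP1 and WWTR1 FPKM was 53.2 to 58.3% in EGFR-low DMSO and 68.7 to 75.9% in EGFR-high DMSO. TEAD1 overlapped, at 31.8 to 34.9 FPKM and 32.0 to 37.9 FPKM, with a difference of -0.09 and a 95% interval of -0.32 to 0.15.

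AMOTL1 and ANKRD1 had the largest log2 differences of the 10 members in DMSO. AMOTL1 measured 10.3, 1.11 and 1.09 FPKM in EGFR-low DMSO and 29.3, 40.4 and 32.5 FPKM in EGFR-high DMSO libraries. Replicate 1, the EGFR-low DMSO library that stood apart, was more than its group mates but still below every EGFR-high library, and the log2 difference was -3.24 ± 0.501 (SE, limma, adjusted p = 0.00044). Without this library and EGFR-high DMSO replicate 3 it was -4.07. AMOTL2 measured 16.1, 11.3 and 13.2 FPKM against 36.4, 23.9 and 19.0 FPKM, with no overlap and a difference of -0.88 ± 0.273 (SE, limma, adjusted p = 0.0184). That call was lost without EGFR-low DMSO replicate 2 (limma, adjusted p = 0.071), EGFR-low DMSO replicate 3 (0.0505) or EGFR-high DMSO replicate 1 (0.0832).

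**Figure D3:**
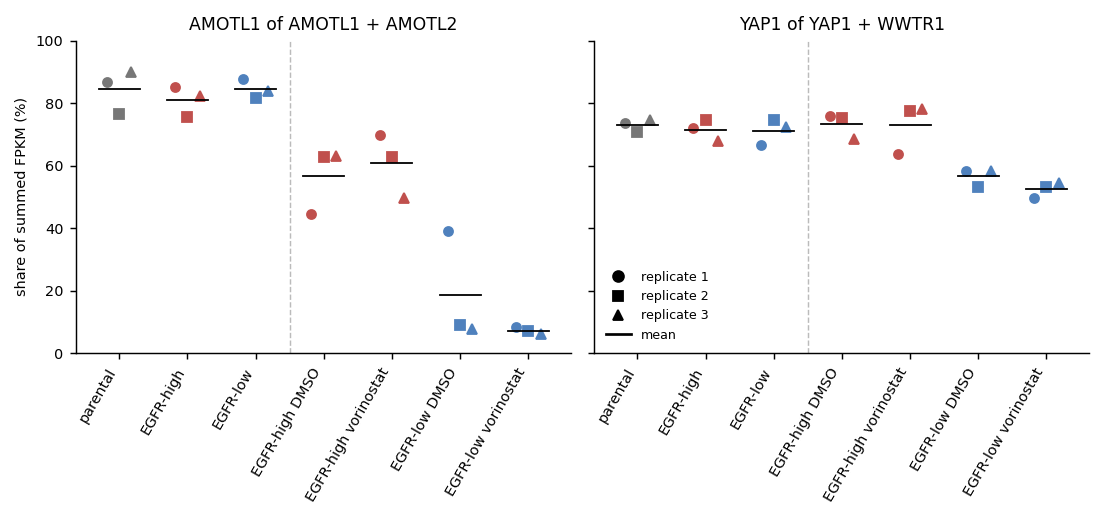
The left panel plots AMOTL1 as a percentage of the summed AMOTL1 and AMOTL2 FPKM and the right panel YAP1 as a percentage of the summed YAP1 and WWTR1 FPKM, with 1 point per library and a line at the group mean. AMOTL1 makes up 6.12 to 8.38% in EGFR-low vorinostat libraries and 49.5 to 69.9% in EGFR-high vorinostat libraries, with EGFR-low DMSO replicate 1 between them at 39.1%.

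LATS2, a LATS kinase, and AJUBA, a scaffold that restrains LATS kinases, were both higher in EGFR-low cells. LATS2 measured 5.95, 5.71 and 5.41 FPKM in EGFR-low DMSO and 3.93, 2.94 and 3.87 FPKM in EGFR-high DMSO. The groups did not overlap, and the log2 difference was 0.55 ± 0.190 (SE, limma, adjusted p = 0.029), a call that was lost after median-of-ratios scaling (0.44, limma, adjusted p = 0.0955) and without EGFR-low DMSO replicate 1 (0.0684), 2 (0.0727) or 3 (0.0589) or EGFR-high DMSO replicate 2 (0.11). It was also lost without the 2 libraries that stood apart (0.57, limma, adjusted p = 0.0781). AJUBA measured 37.6, 28.1 and 34.8 FPKM against 12.8, 11.7 and 15.3 FPKM. It was above EGFR-high in every library, with a difference of 1.27 ± 0.284 (SE, limma, adjusted p = 0.00317) that was called in every left-out fit.

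The 3 members grouped above as targets differed in direction, and 1 of them was called. ANKRD1 measured 3.70, 0.137 and 0.288 FPKM in EGFR-low DMSO and 56.2, 14.8 and 13.2 FPKM in EGFR-high DMSO, which did not overlap. Its log2 difference was -3.62 ± 0.621 (SE, limma, adjusted p = 0.000717), and it was -4.63 without the 2 libraries that stood apart. CTGF went the other way in level, with 6.88, 1.76 and 2.06 FPKM in EGFR-low DMSO and 0.735, 0.0237 and 1.40 FPKM in EGFR-high DMSO. These groups did not overlap either, but the difference of 1.32 ± 0.684 (SE) was not called (limma, adjusted p = 0.126). CYR61 measured 41.5, 16.5 and 22.4 FPKM against 82.3, 18.2 and 23.8 FPKM, overlapping, with a difference of -0.39 and a 95% interval of -2.02 to 1.23.

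Replicate 1 carried much of the spread of the targets in the second experiment. CYR61 was highest in replicate 1 in 4 of 4 groups, at 41.5 to 87.2 FPKM against 13.4 to 28.8 FPKM in the other 8 libraries, and ANKRD1 and LATS2 were also highest there in 4 of 4 groups and CTGF in 3 of 4. Without replicate 1 of every group, another alternative chosen after seeing the data, CYR61 differed by -0.11 in DMSO (limma, adjusted p = 0.747), CTGF by 0.89 (limma, adjusted p = 0.0547) and ANKRD1 by -3.63 (limma, adjusted p = 9.07e-05). The part of the replicate 1 libraries in the spread of other genes was not tested.

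With vorinostat, EGFR-low and EGFR-high cells differed in the same members and in TEAD1. With limma, 7 of 10 members were called where 59% of all genes were, 36.2% higher and 22.8% lower in EGFR-low cells. It was 6 without the 2 DMSO libraries that stood apart, TEAD1 being lost. AMOTL1 measured 1.16, 0.79 and 0.715 FPKM in EGFR-low vorinostat and 56.0, 41.1 and 46.5 FPKM in EGFR-high vorinostat libraries. The ratio of the means was 53.8, and the log2 difference was -4.69 ± 0.501 (SE, limma, adjusted p = 4.12e-05). ANKRD1 measured 0.585, 0.115 and 0.3 FPKM against 53.3, 16.9 and 36.3 FPKM. Its means differed by a factor of 106 and its log2 difference was -4.65 ± 0.621 (SE, limma, adjusted p = 8.67e-05).

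The other called members had smaller differences with vorinostat. AMOTL2 measured 12.7, 10.4 and 10.97 FPKM in EGFR-low against 24.1, 24.3 and 47.4 FPKM in EGFR-high, a log2 difference of -1.35 (limma, adjusted p = 0.00128). YAP1 measured 25.1, 32.6 and 32.2 FPKM against 41.5, 67.3 and 78.1 FPKM, a difference of -0.99 (limma, adjusted p = 0.00106). AJUBA measured 39.9, 28.8 and 33.2 FPKM against 8.97, 7.80 and 20.8 FPKM, a difference of 1.48 (limma, adjusted p = 0.000891). None of these 3 genes overlapped between the groups, as was the case for 60.8% of all genes, and all 3 were called in every left-out fit. TEAD1 was nearly constant in EGFR-low cells, at 33.7, 33.5 and 33.9 FPKM, against 41.5, 37.7 and 46.8 FPKM in EGFR-high. It did not overlap, and its difference of -0.30 ± 0.108 (SE, limma, adjusted p = 0.0308) was not called without EGFR-low vorinostat replicate 1 (0.0616), 2 (0.0795) or 3 (0.0701) or EGFR-high vorinostat replicate 3 (0.103), without replicate 1 of every group (0.0635) or without the 2 DMSO libraries that stood apart (0.0537). LATS2 measured 7.61, 5.54 and 5.17 FPKM against 5.04, 2.78 and 3.90 FPKM, a difference of 0.55 (limma, adjusted p = 0.0269). That call was lost after median-of-ratios scaling (limma, adjusted p = 0.122) and without EGFR-low vorinostat replicate 1 (0.106) or EGFR-high vorinostat replicate 2 (0.112) or 3 (0.0506).

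CTGF with vorinostat measured 14.3, 1.23 and 1.57 FPKM in EGFR-low and 1.55, 0.0826 and 0.141 FPKM in EGFR-high cells. The groups overlapped through EGFR-high replicate 1, and the log2 difference of 1.60 ± 0.684 (SE) just missed the threshold (limma, adjusted p = 0.0627). Same-numbered libraries deviated together in this comparison (0.163 to 0.353), and with the replicate block CTGF was called (limma, adjusted p = 0.011). The block also spanned the DMSO libraries. There the lowest correlation of same-numbered deviations was -0.207 between EGFR-low and EGFR-high, and -0.143 between vorinostat and DMSO in EGFR-high cells. CTGF was also called without EGFR-low vorinostat replicate 2 (0.0319) or 3 (0.0462), without EGFR-high vorinostat replicate 1 (0.0393), with a pseudocount of 0.1 (2.93, limma, adjusted p = 0.0495) and without replicate 1 of every group (1.105, limma, adjusted p = 0.0225). CYR61 measured 68.7, 13.4 and 15.2 FPKM against 87.2, 16.5 and 28.8 FPKM and overlapped, with a difference of -0.50 and a 95% interval of -2.12 to 1.12. WWTR1 measured 25.6, 28.7 and 26.8 FPKM against 23.8, 19.4 and 21.8 FPKM, with no overlap and a difference of 0.31 that was not called (limma, adjusted p = 0.0811).

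**Figure D4:**
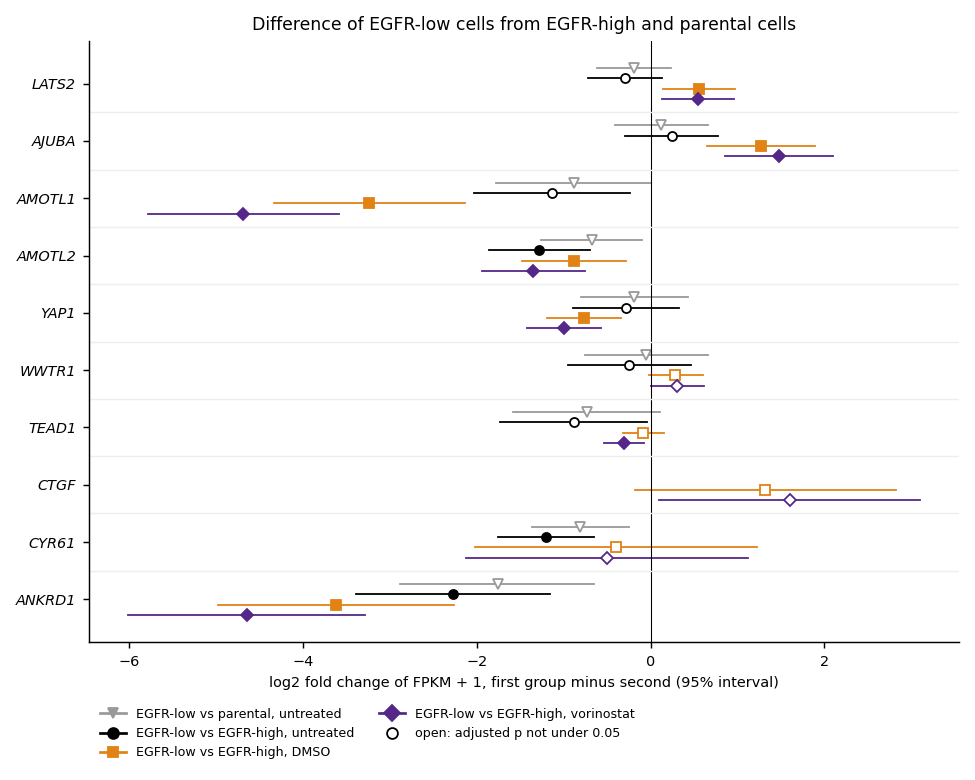
Log2 difference of FPKM + 1 with its 95% interval for each member in 4 comparisons, EGFR-low minus the named group; filled symbols are called at an adjusted p under 0.05. ANKRD1 lies left of 0 in all 4 comparisons and CTGF right of 0 in the 2 where it was tested, while AJUBA is at 0.24 in untreated and at 1.48 in vorinostat-treated cells.

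No member passed the test for an effect of vorinostat. In each sorted population, and in the difference between the effects in them, 0 of 10 members and 0% of all genes were called with limma. At an unadjusted p under 0.05, 115, 409 and 215 of the 12236 genes passed for EGFR-low, EGFR-high and the difference, and TEAD1 in EGFR-high cells was the 1 member among them, with a log2 difference of 0.25 (limma, adjusted p = 0.94). AMOTL1 differed by -0.97 in EGFR-low cells, where DMSO replicate 1 decided the value and it was -0.16 without that library and EGFR-high DMSO replicate 3, and by 0.48 in EGFR-high cells, where the groups did not overlap. The difference of these effects was -1.45, with a 95% interval of -3.00 to 0.10 (limma, adjusted p = 0.999), and -0.62 without the same 2 libraries. YAP1 differed by -0.30 in EGFR-low cells, where the groups did not overlap, with a 95% interval of -0.72 to 0.13. Of all genes, 9.46% did not overlap between vorinostat and DMSO in EGFR-low cells and 5.33% in EGFR-high cells. In the fit without a replicate block the 95% intervals of CTGF and CYR61 reached from -1.36 to 1.63 and from -1.66 to 1.59 in EGFR-low cells.

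The other genes of the pathway were taken as 4 lists. Among 16 Hippo kinases and scaffolds, none was called in the untreated comparison of EGFR-low with EGFR-high (limma), and the largest differences were those of the phosphatase PTPN14 (-0.94, limma, adjusted p = 0.122) and the scaffold WWC1 (-0.90, limma, adjusted p = 0.344). In DMSO 3 were higher and 5 lower in EGFR-low cells, a share close to the 51.8% of all genes. FRMD6, a FERM domain scaffold, had a log2 difference of -1.52, the kinase STK4 (MST1) -1.27, the tumour suppressor NF2 0.82 and the kinase STK3 (MST2) 0.58. With vorinostat 2 of 16 were higher and 5 lower, where 59% of all genes were called. The called genes were led by FRMD6 (-1.78), STK4 (-1.24), WWC1 (-0.82) and MOB1B (0.70), a LATS cofactor. The list's median log2 difference was 0.08 in DMSO and -0.04 with vorinostat.

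TEAD paralogs, VGLL cofactors and paralogs of the members lay mostly on the lower side. VGLL1, a TEAD cofactor that competes with YAP for the same partner, was the 1 of 8 tested genes called in untreated cells, at 53.1, 44.4 and 30.6 FPKM in EGFR-low and 149, 135 and 149 FPKM in EGFR-high libraries. These did not overlap, and the log2 difference was -1.77 (limma, adjusted p = 0.01). Of all genes 3.81% were called in untreated cells. In DMSO VGLL1 measured 26.4, 0.566 and 0.415 FPKM in EGFR-low and 162, 130 and 89.4 FPKM in EGFR-high cells, a difference of -4.98, and EGFR-low replicate 1 again lay between. AMOT, the angiomotin paralog of AMOTL1 and AMOTL2, measured 3.29, 0.0499 and 0.0601 FPKM against 15.6, 11.6 and 10.9 FPKM, a difference of -3.01. VGLL3 differed by -1.39 and TEAD4 by -1.22. Of the 8 genes 4 were called lower in DMSO and TEAD2 was the 1 gene called higher, at 0.90. Of all genes 20.7% were called lower and 31.1% higher there. With vorinostat 2 of 8 were higher and 5 lower, where 36.2% of all genes were called higher and 22.8% lower. The called genes were led by VGLL1 (-6.36), AMOT (-3.91), VGLL3 (-1.80) and TEAD4 (-1.37). The list's median was -0.36 in untreated cells, -0.84 in DMSO and -1.13 with vorinostat, where that of all genes was -0.03, 0.12 and 0.16.

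Targets of YAP and TAZ beside the 3 members, from a published signature, were called in both directions in the second experiment. In untreated cells 2 of 13 tested genes were called and both were lower, where 3.81% of all genes were called. IGFBP3, which binds insulin-like growth factors, measured 58.2, 76.7 and 44.7 FPKM in EGFR-low and 167, 198 and 132 FPKM in EGFR-high cells, a log2 difference of -1.47 (limma, adjusted p = 0.0128). FJX1 differed by -1.09 (limma, adjusted p = 0.0468). In DMSO 3 were higher and 6 lower of 15, where 51.8% of all genes were called, 31.1% higher and 20.7% lower. The called targets were led by the receptor tyrosine kinase AXL (-4.07), IGFBP3 (-2.95), ASAP1 (-2.82) and the coagulation initiator F3 (-2.57). On the higher side, mean levels in EGFR-low and EGFR-high DMSO cells were 106.9 and 44.41 FPKM for MYOF and 3.436 and 1.249 FPKM for NUAK2. For RBMS3 they were 1.928 and 0.0977 FPKM. With vorinostat 3 were higher and 7 lower, where 59% of all genes were called, 36.2% higher and 22.8% lower. The called targets were led by IGFBP3 (-5.92), AXL (-4.47), F3 (-3.65) and ASAP1 (-3.42). AXL measured 10.8, 0.314 and 0.191 FPKM in EGFR-low DMSO and 35.8, 62.6 and 36.2 FPKM in EGFR-high DMSO libraries. The list's median was -0.45, -0.64 and -0.47 in the 3 comparisons.

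Of the polarity and cadherin genes, PARD6B, a cell polarity adaptor, was the 1 of 10 tested that was called in untreated cells, with 1.73, 3.56 and 2.39 FPKM in EGFR-low and 8.02, 10.4 and 5.74 FPKM in EGFR-high libraries and a log2 difference of -1.34 (limma, adjusted p = 0.0198). Of all genes 3.81% were called in untreated cells. In DMSO 3 of 10 were higher and 3 lower, where 51.8% of all genes were called. The called genes were led by SCRIB (-1.0), LLGL2 (0.91), PARD6B (-0.77) and LLGL1 (0.71). With vorinostat 4 were higher and 3 lower, where 59% of all genes were called. The called genes were led by SCRIB (-1.55), PARD6B (-1.20), LLGL2 (1.06) and LLGL1 (0.89). The list's median was 0.01, 0.26 and 0.12. None of the 4 lists had a gene called against parental cells or between vorinostat and DMSO (limma), where the largest differences were those of VGLL1 (-1.36) in EGFR-low against parental, SCRIB (1.21) in EGFR-high against parental and IGFBP3 with vorinostat (-2.16 in EGFR-low and 0.81 in EGFR-high, a difference between the effects of -2.97, limma, adjusted p = 0.999).

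**Figure D5:**
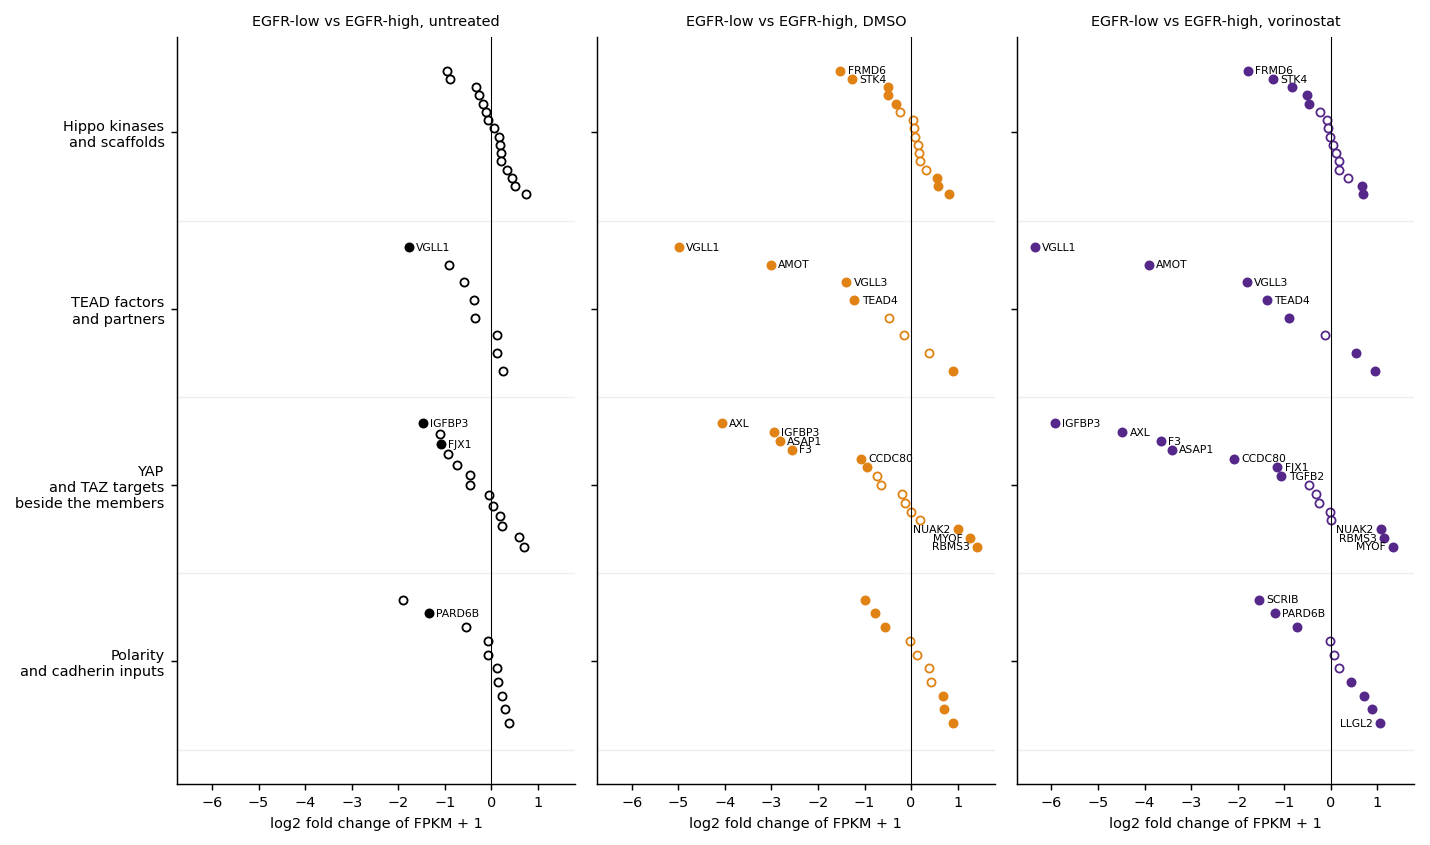
Each point is 1 gene of 4 pathway lists and its log2 difference of FPKM + 1 between EGFR-low and EGFR-high cells, untreated (left), in DMSO (middle) and with vorinostat (right), sorted within each list; filled points are called at an adjusted p under 0.05 and named where they differ by more than 1. VGLL1 and IGFBP3 are filled and left of 0 in all 3 panels.

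Genes with the pattern nearest to a member's were ranked over 11118 genes tested in both experiments by the smaller of the Pearson r over 9 untreated and over 12 treated libraries, whose points share groups and normalisation. AMOTL2 was followed most closely by JDP2 (0.938 and 0.932), DLG4 (0.931 and 0.929) and FJX1 (0.977 and 0.915). YAP1 was followed by VPRBP (0.965 and 0.979), TRIM44 (0.949 and 0.98) and SIK2 (0.949 and 0.987). TEAD1 was followed by SPEN (0.9 and 0.911), KMT2A (0.871 and 0.9) and CBL (0.867 and 0.932). The nearest patterns to CYR61 were those of MFSD2A (0.836 and 0.882), EDEM1 (0.923 and 0.799) and LIPG (0.922 and 0.79), and to AJUBA those of WDR45B (0.829 and 0.907), RNF31 (0.791 and 0.858) and NPC1 (0.779 and 0.884). CTGF had no ranking because it was not tested in untreated cells.

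Set side by side across the 2 separately made tables, the order of the members' mean levels in EGFR-low cells differed between untreated and DMSO libraries. YAP1 had the highest mean in both, at 55.4 ± 13.9 and 36.8 ± 2.504 FPKM (SD, n = 3 each). In DMSO its range of 34.58 to 39.53 FPKM overlapped those of AJUBA (28.09 to 37.57 FPKM) and TEAD1 (31.77 to 34.94 FPKM). AMOTL1 was at 20.3 ± 8.78 FPKM untreated and at 4.17 ± 5.32 FPKM in DMSO, and AJUBA at 5.46 ± 0.842 and 33.5 ± 4.88 FPKM. In EGFR-high cells AMOTL1 was at 44.2 ± 13.3 and 34.1 ± 5.71 FPKM and AJUBA at 4.44 ± 0.519 and 13.3 ± 1.83 FPKM. Neighbours in the order whose ranges overlapped, such as AMOTL1, TEAD1 and WWTR1 in untreated EGFR-low cells, did not differ beyond their spread. Harvest time, treatment with solvent and experiment cannot be told apart in this contrast. Whether the EGFR-low libraries of both experiments hold the same cells was not tested.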

How the data were processed

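RNA was sequenced as poly(A)-selected libraries from 21 samples of PC9 cells. According to the submitters' processing notes, STAR 2.5.1b, Cufflinks 2.2.1 and DESeq2 1.10.1 were used with hg19, without a stated order. The values the authors deposited are FPKM per gene, as Cufflinks gives them, and no read counts were analysed here, so the depth behind each value is unknown. FPKM summed to 467897 to 592942 per library. The use of strand in counting was not given in the sources used here.

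For each experiment, limma 3.58.1 in R 4.3.3 (trend, 1 mean per group, two-sided) was fitted to log2(FPKM + 1) of every gene that reached 1 FPKM in 3 or more libraries, with Benjamini-Hochberg adjustment across these genes. A gene was called at an adjusted p under 0.05. Differences on this scale understate changes of low genes. An exact permutation test of 3 against 3 libraries cannot fall below p = 0.1. The fit was also run on simulated data with independent noise in each library. Such data hold no shared deviation of same-numbered libraries, so that run does not bear on the pairing.

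Members and lists were chosen with earlier results of these data known. Named list genes were, per list and comparison, up to 4 called genes with the largest difference, or the largest of those not called. TEAD2, MYOF, NUAK2 and RBMS3 were named beside these in DMSO. Same-numbered libraries were taken as paired where each pair's deviations correlated above 0.1: EGFR-low with EGFR-high untreated (0.343 to 0.73) and with vorinostat (0.163 to 0.353), and vorinostat with DMSO in EGFR-low (0.267 to 0.329). Alternatives were other pseudocounts (0.1 and 5), filters, scaling, the replicate block and left-out libraries. Promoters came from RefSeq (GRCh38.p14) for 8 of 10 members. Python 3.11.15 was used for the rest.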

Additional observations from a re-analysis of the deposited data

How the results depend on the processing

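With no read counts, the depth behind low values such as those of CTGF is unknown. For EGFR-low against EGFR-high without treatment the count of members called was 3. It was 5 with the replicate block and 0 to 1 with 1 library left out, and the cause of these changes was not tested. Against parental cells 0 members were called in EGFR-low cells and 3 with the replicate block (ANKRD1, AMOTL1 and TEAD1), although same-numbered libraries did not all deviate together there (lowest r of -0.092). The counts of 6 in DMSO and 7 with vorinostat stayed within 1.5 times their value under every alternative run, and the count for vorinostat against DMSO stayed at 0 in both populations. Over all genes, 431 were called in the sorted untreated comparison, 965 with the replicate block, 660 without a filter and 206 at a minimum of 5 FPKM. The 181 calls of EGFR-low against parental became 525, 331 and 82, and the 8 of EGFR-high against parental became 9, 15 and 3. Beside the calls given above and that of CTGF with vorinostat, the replicate block changed the call of 1 member, CTGF in DMSO (limma, adjusted p = 0.0298), where the libraries were not taken as paired.

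ANKRD1 in untreated cells was not called with a pseudocount of 5 (-1.11, limma, adjusted p = 0.0836) or without a filter on low values (-2.27, limma, adjusted p = 0.0842). The sign of a member's difference changed in 66 fits with libraries left out, in 2 after median-of-ratios scaling and in 1 with a pseudocount of 5, each time for a member and comparison that were not called. With libraries left out, WWTR1 in untreated EGFR-low against EGFR-high cells ranged from -0.458 to 0.077, CYR61 from -0.98 to 0.25 in DMSO and from -1.23 to 0.15 with vorinostat, ANKRD1, CTGF and CYR61 under vorinostat in EGFR-low cells from -0.90 to 0.13, from -0.762 to 0.631 and from -0.765 to 0.372, AJUBA and YAP1 in EGFR-low against parental cells from -0.065 to 0.312 and from -0.384 to 0.028, and AMOTL2 under vorinostat in EGFR-high cells from -0.072 to 0.489 (0.649 without replicate 1 of every group). The cause was not tested.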
